A study of Mus musculus with 19 samples.

Results

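The 4 count columns whose names begin with SVX were compared with the 4 whose names begin with VAS, which are 8 of the 19 endometrial RNA libraries of the series. The columns were chosen by that prefix alone, and the 4 columns named SVX_VAS were left out. In both sets the females were wild-type C57Bl/6 mice mated with Balb/c males that had been surgically modified, and the endometrium, the inner lining of the uterus, was taken on day 3.5 post-coitum (pc). Different label fields attach different surgeries to the same libraries, so no surgery is named here. The methods give an age range in weeks for the INT females described next, and no age was found for the SVX and VAS females. The groups used as a background were 4 day 3.5 pc libraries of C57Bl/6 females whose Balb/c mates were intact (INT) and 3 of C57Bl/6 females at estrus. For the INT and estrus groups, the study's text calls the samples pooled, and its methods describe endometrium scraped from the muscle layer. Pool sizes are not given in the sources used here, so p-values measure the spread between libraries.

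Day 3.5 pc is the time just before the mouse embryo attaches. At estrus, estrogen drives the luminal epithelium to divide and to secrete proteins such as lactoferrin and complement C3. After ovulation, progesterone takes over: epithelial growth stops, the estrogen-driven secretory genes fall, stromal cells begin to divide, and the glands make leukemia inhibitory factor and other products that attachment depends on. Seminal fluid adds a separate signal, as it calls immune cells into the uterus after mating.

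By edgeR no gene differed between SVX and VAS at the cutoffs, with or without VAS 2 and VAS 3, which stand apart. Other tools called genes with all 8 libraries, and none without VAS 2 and VAS 3. The median level of the estrogen-response list differed widely between libraries, though not every gene of it was high in SVX 1. It was high in VAS 1, VAS 2, VAS 3 and SVX 1 and low in SVX 2, SVX 3, SVX 4 and VAS 4. That split runs across both sets.

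VAS 2 and VAS 3 stand apart from the other 6 libraries in how counts are spread over genes. The log2 ratio to the mean of the INT libraries, over 978 tested genes annotated as antisense, of which 961 overlap a gene on the opposite strand, had a median of -3.01 in VAS 2 and -2.97 in VAS 3, against -0.07 to 0.00 in the other 6. The 10 largest genes held 1.11% and 1.07% of the counts, against 4.12% to 5.81% elsewhere. Malat1, a long nuclear RNA, was at 545 and 544 CPM (counts scaled to library size), against 9867 to 13963 in the other 6 libraries. Among the 1% of other genes with the most counts per kilobase (169 genes) the median log2 ratio was -2.22 and -2.21, whereas the lowest 10% (1626 genes) were above INT by 0.46 and 0.43. In 1346 of the 17222 genes tested (7.82%) both libraries lay below 10% of the lowest value among the other 6, and 600 of the antisense genes did so (61.4%). That share was 3.70% for genes with no exon overlap on the opposite strand and 80.7% where 90% to 100% of the exon length overlapped. Calls, and medians of lists with more than 3 tested genes, are therefore given with and without these 2 libraries. A logFC of a single gene with no set of libraries named is from the fit without them. Total counts were 12661266 to 13799614 in SVX and 14040286 to 18258677 in VAS, and a count of 0 allows a level of up to 0.139 to 0.234 CPM (3 counts, for counting error only).

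**Figure D1:**
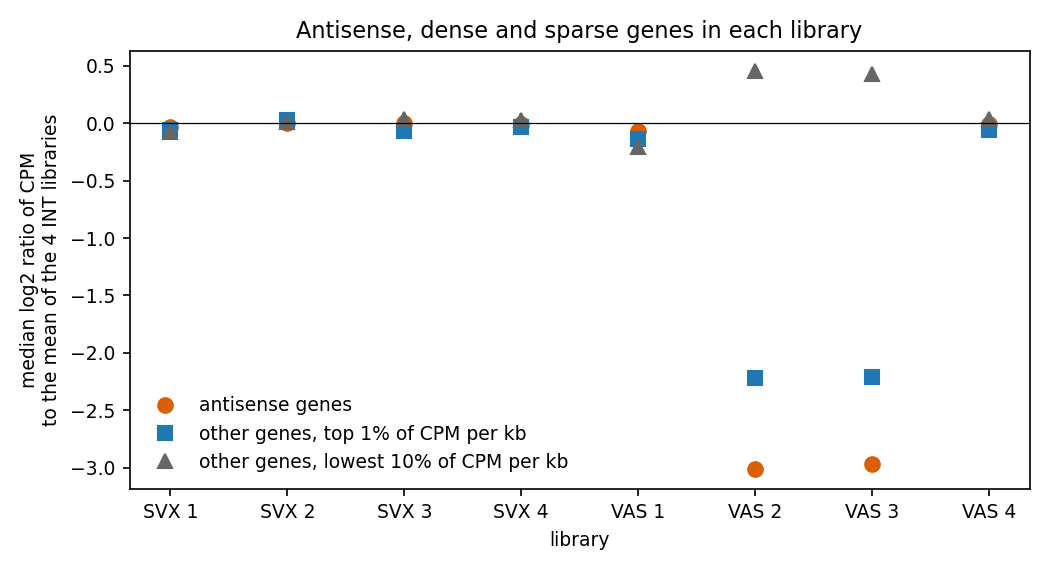
Median log2 ratio of CPM to the mean of the 4 INT libraries (vertical axis) in each of the 8 libraries (horizontal axis), for antisense genes (circles), the 1% of other genes with the most CPM per kilobase (squares) and the lowest 10% (triangles). VAS 2 and VAS 3 lie near -3 for antisense genes and near -2.2 for dense genes, and the other 6 libraries lie close to 0.

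A principal component analysis of log2 CPM put VAS 2 and VAS 3 alone at one end of the first component (85.2% of the variance). VAS 1 led the second (9.77%), with a score of 77.6, followed by SVX 1 at 19.1. With VAS 2 and VAS 3 left out, the first component (76.5%) ran from VAS 1 at 77.3 through SVX 1 at 18.7 to the other 4 at -27.3 to -20.4. VAS 4, at -20.4, lay close to SVX 2, SVX 3 and SVX 4 (-27.3 to -24.1) on that axis, on the side of SVX 1. Across genes, VAS 4 had a Pearson r of 0.979 to 0.993 with the SVX libraries but 0.928 with VAS 1. These r values share the same genes and are descriptions. The median absolute log2 difference over genes was 0.333 between VAS 1 and VAS 4 and 0.0838 between VAS 4 and the SVX mean. The libraries left in the VAS set thus differed from each other by more than VAS 4 differed from SVX.

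**Figure D2:**
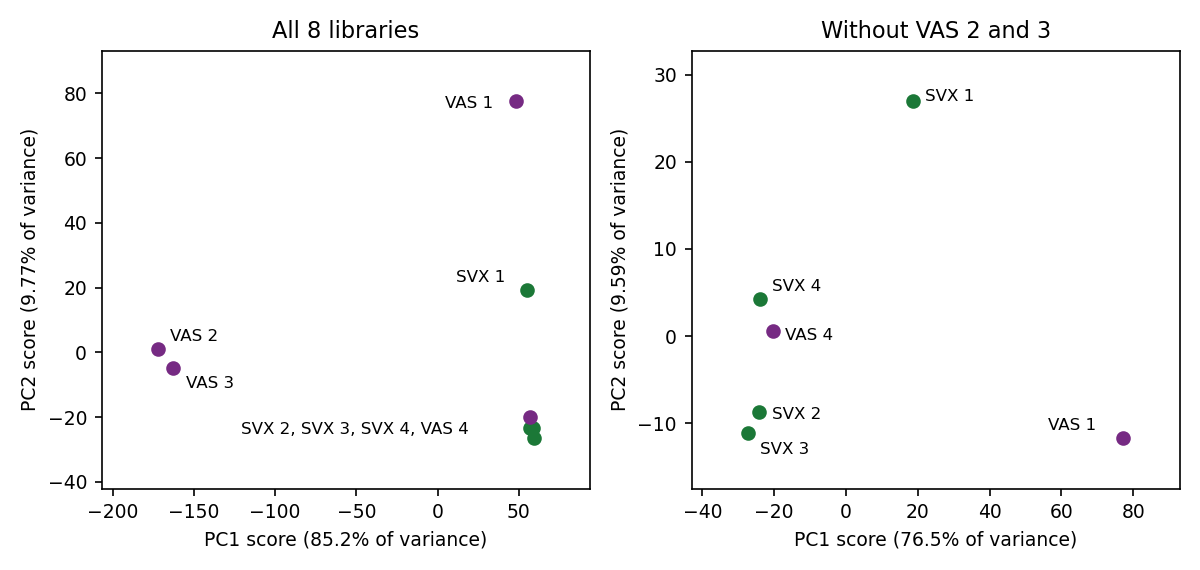
Scores of the libraries on the first and the second principal component of log2 CPM, with the share of variance on each axis, for all 8 libraries (left) and without VAS 2 and VAS 3 (right). Green points are SVX and purple points VAS; on the right VAS 4 lies close to SVX 2, SVX 3 and SVX 4, and VAS 1 lies alone at 77.3.

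The question for single genes was whether SVX and VAS differed at all. Of 17222 genes tested, 0 were higher and 0 lower in SVX by edgeR's quasi-likelihood test with all 19 libraries in the fit (log2 fold change, logFC, of 0.58 or more in size, and an FDR after Benjamini-Hochberg adjustment no higher than 0.05), which is 0% of genes. The smallest FDR was 0.304. At an unadjusted p under 0.05 there were 2651 genes (15.4%), 1144 higher (6.64%) and 1507 lower (8.75%). DESeq2 called 1 gene higher (0.00581%) and 0 lower, limma-voom 1634 higher (9.49%) and 22 lower (0.128%), and limma-voom with sample quality weights 3297 higher (19.1%) and 1353 lower (7.86%). Without VAS 2 and VAS 3, edgeR again called 0 higher and 0 lower, with a smallest FDR of 0.716. At an unadjusted p under 0.05 there were 780 genes (4.53%), 233 higher (1.35%) and 547 lower (3.18%). Of 191 genes on the gene lists, 7 were among them (3.66%), namely Il6st, Dnah5 and Ovgp1 higher in SVX and Wnt4, Mx1, Ly6g and Il5ra lower. With all libraries there were 41 (21.5%). Without VAS 2 and VAS 3, DESeq2, limma-voom and limma-voom with quality weights also called 0, with 836, 733 and 351 genes at an unadjusted p under 0.05. The 95% confidence interval of the logFC lay within 1 of 0 in 14225 genes (82.6%), so larger differences fall outside the intervals of those genes, while the other genes were measured less closely.

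The limma-voom calls rested on VAS 2 and VAS 3. Of the 1634 genes called higher in SVX, 1616 were lower in both of these libraries than in all of the other 6, with a median of 0.0935 CPM against 7.47. Antisense genes made up 655 of them (67.0% of the antisense genes tested), and 126 were processed pseudogenes (48.5%). Of the protein-coding genes, 363 were called (2.64%). At least 1 of VAS 1 and VAS 4 reached the SVX range or lay above it in 1489 of the 1634. The single gene called by DESeq2, ENSMUSG00000097243.1, was looked up after its values were seen. It lies on the plus strand of chromosome 14 (GRCm38, 70205324 to 70217659) opposite Sorbs3, which codes for an adhesion adaptor protein. Its level was 4.72, 5.16, 5.45 and 4.63 CPM in SVX 1 to 4 and 2.46, 2.32, 2.52 and 3.44 CPM in VAS 1 to 4. All SVX libraries lay above all VAS libraries, VAS 1 and VAS 4 included. With all libraries its logFC was 0.93 by DESeq2 (FDR 0.00456) and 0.89 ± 0.16 (SE) by edgeR (FDR 0.304), and without VAS 2 and VAS 3 it was 0.74 ± 0.17 by edgeR (FDR 0.716). Reads of overlapping genes cannot be told apart where the strand setting of the counting is unknown.

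Leaving out VAS 4, with VAS 2 and VAS 3 kept, was the single omission that gave edgeR calls, 481 higher (2.79%) and 204 lower (1.18%), 685 in all. Antisense genes were 8.18% of those calls and 5.68% of the genes tested.

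The estrogen-response list held 12 genes, of which 10 were tested. The median log2 CPM over the 10 was 4.83, 1.22, 1.29 and 1.24 in SVX 1 to 4 and 7.02, 5.97, 4.81 and 1.68 in VAS 1 to 4. SVX 1 lay level with VAS 3, and VAS 4 close to the 3 low SVX libraries. INT libraries ranged from 2.14 to 8.19 and estrus libraries from 8.98 to 9.07. All 10 logFC values were below 0 in both fits, with a median of -1.94 with all libraries and -2.39 without VAS 2 and VAS 3, beside medians of -0.01 and -0.02 over all genes tested. None passed the test, and in the fit without VAS 2 and VAS 3 none had an unadjusted p under 0.05. When VAS 1 was also left out, the median was 0.91 and 1 of the 10 was below 0, so the sign of the list rested on VAS 1 in that set. With VAS 2 and VAS 3 kept and VAS 1 left out, the median was -1.50 and 10 of 10 were below 0. Without SVX 1, VAS 2 and VAS 3 it was -4.19, again with 10 of 10 below 0. In that fit 2 of the 10 had an unadjusted p under 0.05 by edgeR, beside 1526 of the 17222 genes tested, and none was called. SVX 1 was the highest SVX library on this list, so leaving it out lowered SVX by that choice. The 2 are a description.

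Ltf, which codes for lactoferrin, an iron-binding secretory protein, lies on chromosome 9 (111019271 to 111042767, plus strand). It was at 272, 32.8, 19.9 and 15.4 CPM in SVX 1 to 4 and 709, 220, 151 and 37.9 CPM in VAS 1 to 4. VAS 4 lay above 3 of the SVX libraries, SVX 1 lay above 3 of the VAS libraries, and the sets overlapped. The logFC was -1.72 ± 1.52 (SE) by edgeR (FDR 0.526) and -2.18 ± 1.82 without VAS 2 and VAS 3 (FDR 0.716). An exact two-sided permutation test of 4 against 4 libraries (70 splits, smallest possible p 0.0286) gave p = 0.171. In INT, Ltf ranged from 27.3 to 2143 CPM, a span wider than that of SVX and VAS together.

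C3, a complement component, was at 185, 158, 144 and 175 CPM in SVX and 1005, 426, 209 and 123 CPM in VAS. VAS 1 was the highest and VAS 4 the lowest of the 8. Lcn2, an iron-siderophore carrier, was at 30.02, 2.50, 2.76 and 4.48 CPM in SVX and 290, 93.5, 47.9 and 3.02 CPM in VAS. Muc1, a mucin of the luminal surface, was at 40.6, 23.7, 20.9 and 25.5 CPM in SVX and 130, 89.2, 43.8 and 19.99 CPM in VAS. In all of these, VAS 4 lay within or below the SVX values and the other 3 VAS libraries above them. Without VAS 2 and VAS 3, Clca1, a secreted protein of mucous epithelium, had the lowest logFC of the list (-4.83 ± 2.47) and Cfb, complement factor B, the highest (-1.23 ± 1.30).

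The start regions of Ltf and C3 are shown because both genes are classical estrogen targets of the mouse uterus and both were highest in VAS 1 among these libraries. They are RefSeq sequences of GRCm38.p6, from 250 bases before to 50 bases after the gene start. The start used for Ltf is not the first base of the gene coordinates given above. Capitals mark GGTCA on either strand (GGTCA or TGACC), which is one arm of the estrogen response element.
Ltf, chr9:111019042-111019341, plus strand: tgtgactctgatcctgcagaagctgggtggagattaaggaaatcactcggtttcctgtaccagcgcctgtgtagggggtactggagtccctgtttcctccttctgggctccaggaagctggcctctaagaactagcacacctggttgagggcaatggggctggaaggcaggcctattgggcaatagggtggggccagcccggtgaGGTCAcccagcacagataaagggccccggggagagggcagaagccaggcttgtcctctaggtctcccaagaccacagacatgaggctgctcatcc
C3, chr17:57228087-57228386, minus strand: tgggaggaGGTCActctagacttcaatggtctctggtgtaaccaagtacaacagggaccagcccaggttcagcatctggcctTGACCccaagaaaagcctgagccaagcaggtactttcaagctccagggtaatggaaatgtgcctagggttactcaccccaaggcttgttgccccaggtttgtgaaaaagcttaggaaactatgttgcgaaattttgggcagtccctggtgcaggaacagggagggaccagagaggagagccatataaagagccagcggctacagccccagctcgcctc
The Ltf region holds 1 such arm and the C3 region 2. An arm was found in 40.5% of the 32851 start regions of the same length, in 3 of the 9 on the list that had a sequence, and the full element (GGTCA, any 3 bases, TGACC) in 0.0700% of all regions and in 0 of those 9. A match is a description of these letters. Bases outside these regions were not searched, so the lack of a match does not mean that a gene lacks the element.

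The progesterone-response list (14 genes, all tested) ran in the other order. Its median log2 CPM was 6.25, 6.27, 6.44 and 6.51 in SVX and 4.74, 5.94, 5.86 and 6.44 in VAS, with INT at 5.39 to 6.62 and estrus at 3.53 to 4.21. VAS 1 was the lowest of the 8, below every INT library, and VAS 4 lay within SVX. The median logFC was 0.42 with all libraries and 0.36 without VAS 2 and VAS 3, where 12 values were above 0 and none had an unadjusted p under 0.05. Without VAS 1 as well it was -0.16, and with VAS 1 alone left out 0.20. Calca, the calcitonin gene, had the largest logFC (0.80 ± 0.63), at 4.57, 6.09, 5.52 and 4.27 CPM in SVX and 0.560, 8.71, 4.49 and 5.40 CPM in VAS. Hsd11b2, which inactivates glucocorticoids, had the smallest (-0.07 ± 0.20).

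Some gland genes varied widely within SVX itself. The median log2 CPM over 7 genes was 6.77, 4.03, 3.96 and 6.71 in SVX 1 to 4 and 2.92, 3.70, 4.52 and 5.35 in VAS 1 to 4, against 3.16 to 6.75 in INT and -0.75 to 0.87 at estrus. Prss28, an implantation serine proteinase made by the glands, was at 138, 8.05, 4.43 and 105 CPM in SVX and 1.96, 5.15, 22.8 and 26.7 CPM in VAS. SVX 1 and SVX 4 were the highest of the 8, and SVX 2 and SVX 3 lay inside the VAS range. Its neighbouring paralog Prss29 was at 209, 15.9, 9.16 and 243 CPM in SVX. Foxa2, a transcription factor of the glands, was at 20.5, 16.3, 15.4 and 13.6 CPM there, with no such split. Sox17 was at 172, 208, 218 and 173 CPM, a smaller split that ran the other way. The step in the list's median thus came from a few of its 7 genes. The logFC of Prss28 was 2.17 ± 1.74 without VAS 2 and VAS 3, and that of Sox17, also a transcription factor, was 0.17 ± 0.21, the largest and the smallest of the list. All 7 values were above 0 in both fits, with medians of 0.48 and 0.64, and none passed the test. With VAS 1 also left out the median was 0.00 and 4 of the 7 were below 0, and with VAS 1 alone left out the median was 0.49.

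Of 17 genes of receptivity and the steroid receptors, 8 had a logFC above 0 and 9 below 0 without VAS 2 and VAS 3 (median -0.07, and 0.27 with all libraries). Lif, leukemia inhibitory factor, is the cytokine that mouse implantation requires (chromosome 11, 4257557 to 4272514, plus strand). It was at 9.29, 15.5, 22.2 and 21.6 CPM in SVX and 18.8, 45.1, 14.4 and 7.51 CPM in VAS. VAS 2 was the highest and VAS 4 the lowest, and the sets overlapped. The logFC was -0.33 ± 0.55 by edgeR (FDR 0.747, exact permutation p = 0.943) and 0.34 ± 0.62 without VAS 2 and VAS 3, so its sign turned. Il6st, the signal-transducing receptor chain for Lif, had a logFC of 0.25 ± 0.10, and Wnt4, a ligand of stromal decidual change, -1.41 ± 0.64, each with an edgeR FDR of 0.716 after Benjamini-Hochberg adjustment. Wnt4 was at 11.9, 5.39, 5.89 and 6.34 CPM in SVX and 32.4, 20.7, 22.99 and 5.61 CPM in VAS, so VAS 4 again lay with SVX. Bmp2, a ligand of decidualization, had the largest logFC (0.60 ± 0.49).

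**Figure D3:**
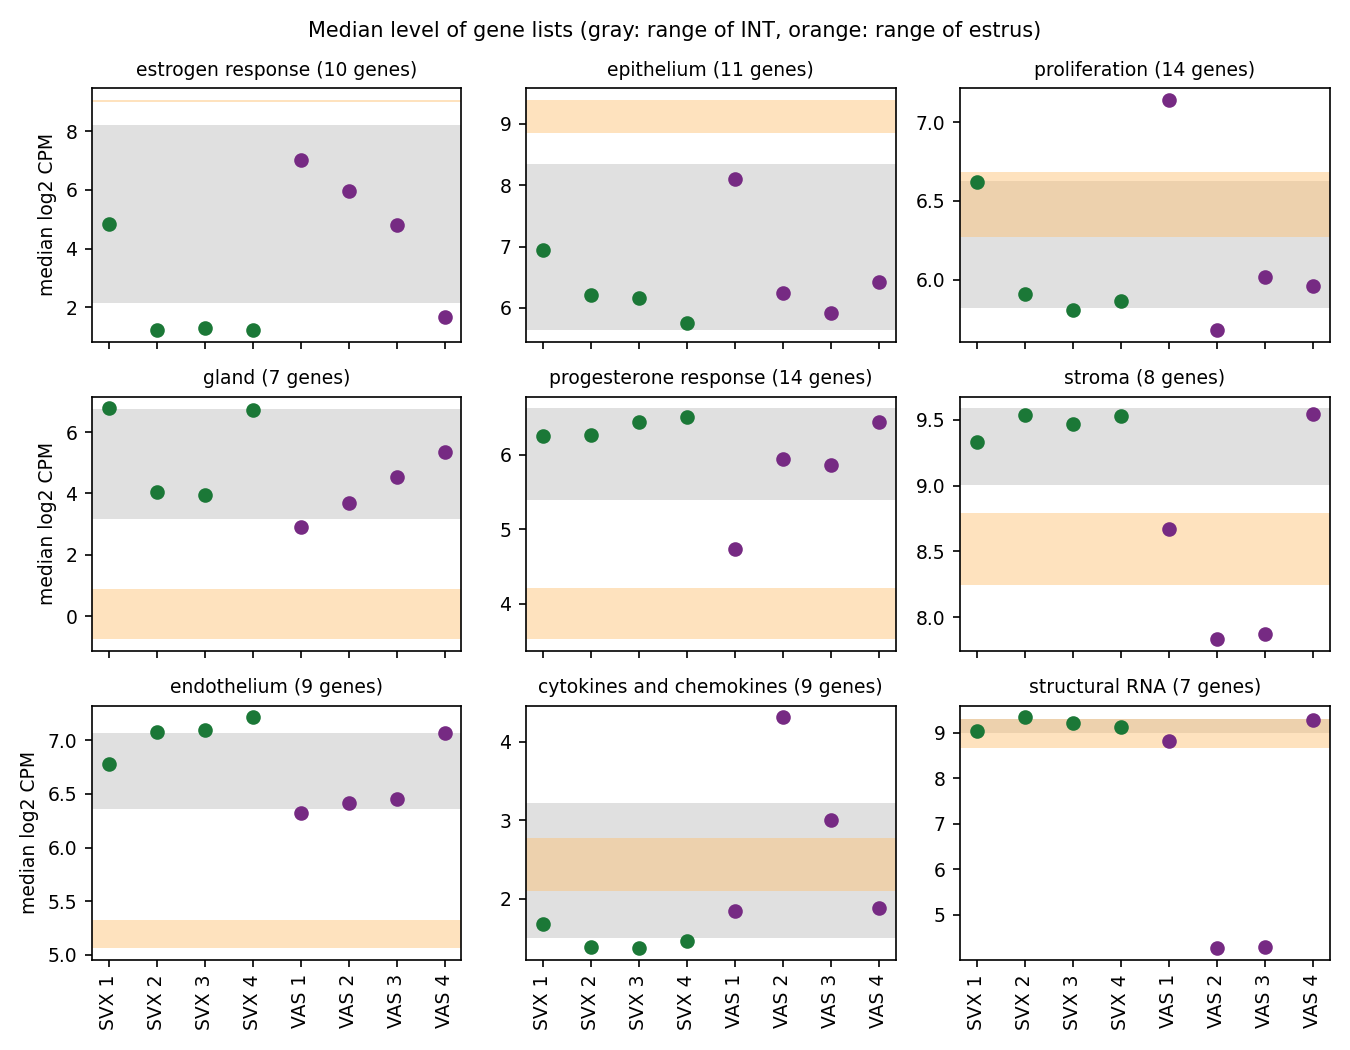
Median log2 CPM of the tested genes of 9 lists (vertical axes) in each library (horizontal axis), with SVX in green and VAS in purple. Gray bands give the range of the 4 INT libraries and orange bands that of the 3 estrus libraries; in the estrogen-response panel VAS 4 lies near 1.7 with SVX 2, SVX 3 and SVX 4, and SVX 1 lies at 4.83.

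Markers of the epithelium (11 genes) followed VAS 1. Their median log2 CPM was 8.11 in VAS 1, 6.94 in SVX 1, and 5.75 to 6.42 in the other 6. Without VAS 2 and VAS 3 the median logFC was -1.01 and 10 of 11 values were below 0. It was -0.39 with all libraries, 0.12 with VAS 1 alone left out and 0.03 without VAS 1, VAS 2 and VAS 3. Cldn3, a tight junction protein, had the highest logFC (0.14 ± 0.22). In bulk tissue, fewer epithelial cells and less RNA per cell cannot be told apart, and the part of the epithelial markers in the estrogen-response values was not tested.

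Proliferation genes (14) were also highest in VAS 1. The median log2 CPM was 7.14 in VAS 1, 6.62 in SVX 1 and 5.68 to 6.02 in the other 6. All 14 logFC values were below 0 without VAS 2 and VAS 3 (median -0.54), from Mcm5 (-0.78 ± 0.43) to Mcm7 (-0.31 ± 0.21), both subunits of the replicative helicase, and none had an unadjusted p under 0.05. With all libraries 11 of the 14 were below 0 (median -0.19). Without VAS 1 0 of the 14 were below 0, with VAS 2 and VAS 3 left out as well (median 0.14) or kept (0.26). Without SVX 1, VAS 2 and VAS 3 all 14 were below 0 (median -0.84). In that fit 7 of the 14 had an unadjusted p under 0.05 by edgeR, beside 1526 of the 17222 genes tested, and none was called. SVX 1 was the highest SVX library on this list, so leaving it out lowered SVX by that choice. The 7 are a description.

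The luminal fluid list (8 of 9 genes tested) had a median logFC of -0.13 with all libraries and -0.09 without VAS 2 and VAS 3. With VAS 1 left out too it was 0.20, with VAS 4 in its place -0.44, and with SVX 1 in its place -0.48. The smallest value of the list was that of Cftr, the chloride channel, with -3.06 ± 1.54. Cftr was at 29.6, 4.69, 3.27 and 3.49 CPM in SVX and 160, 134, 45.9 and 5.19 CPM in VAS. SVX 1 was above VAS 4, and the other 3 VAS libraries were above all SVX libraries. The largest value was that of Scnn1a, a sodium channel subunit (0.37 ± 0.31).

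The stroma list (8 genes) shows what VAS 2 and VAS 3 do to abundant genes. The summed level was 7779 to 8881 CPM in SVX, 10639 and 8295 CPM in VAS 1 and VAS 4, and 2144 and 2336 CPM in VAS 2 and VAS 3. The median logFC was 0.56 with all 8 values above 0 when these libraries were in, and -0.04 when they were out. Col1a1, a collagen chain, had the lowest value then (-0.58 ± 0.34) and Vim, vimentin, the highest (0.31 ± 0.21). Structural RNAs, such as Rmrp and Rpph1, moved likewise. Their median logFC was 1.06 with all libraries and 0.10 without VAS 2 and VAS 3, where it ran from Terc, the telomerase RNA (-0.09 ± 0.31), to Rn7s1, a signal recognition particle RNA (0.18 ± 0.29). Rn7sk was at 0 counts in all 8 libraries.

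Endothelial markers (9 genes) had a median logFC of 0.29 and 0.34, from Vwf (0.06 ± 0.27) to Erg (0.40 ± 0.23) without VAS 2 and VAS 3, and -0.03 without VAS 1 too. For smooth muscle (9 genes), which the scraping was meant to leave behind, the summed level was 536 to 846 CPM in SVX and 307 to 813 CPM in VAS. The median logFC was 0.13 and 0.40, from Myh11 (0.19 ± 0.66) to Actg2 (0.58 ± 0.78), and -0.16 without VAS 1, VAS 2 and VAS 3.

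Leaving out VAS 4 in place of VAS 1 moved these medians the other way. With VAS 1 as the one VAS library, the median logFC was -3.24 for estrogen response, -1.62 for the epithelium and -1.05 for proliferation. It was 1.24 for progesterone response, 1.91 for glands, 1.44 for smooth muscle and 0.83 for the endothelium. In that fit 5368 of all genes tested had an unadjusted p under 0.05, and none was called.

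**Figure D4:**
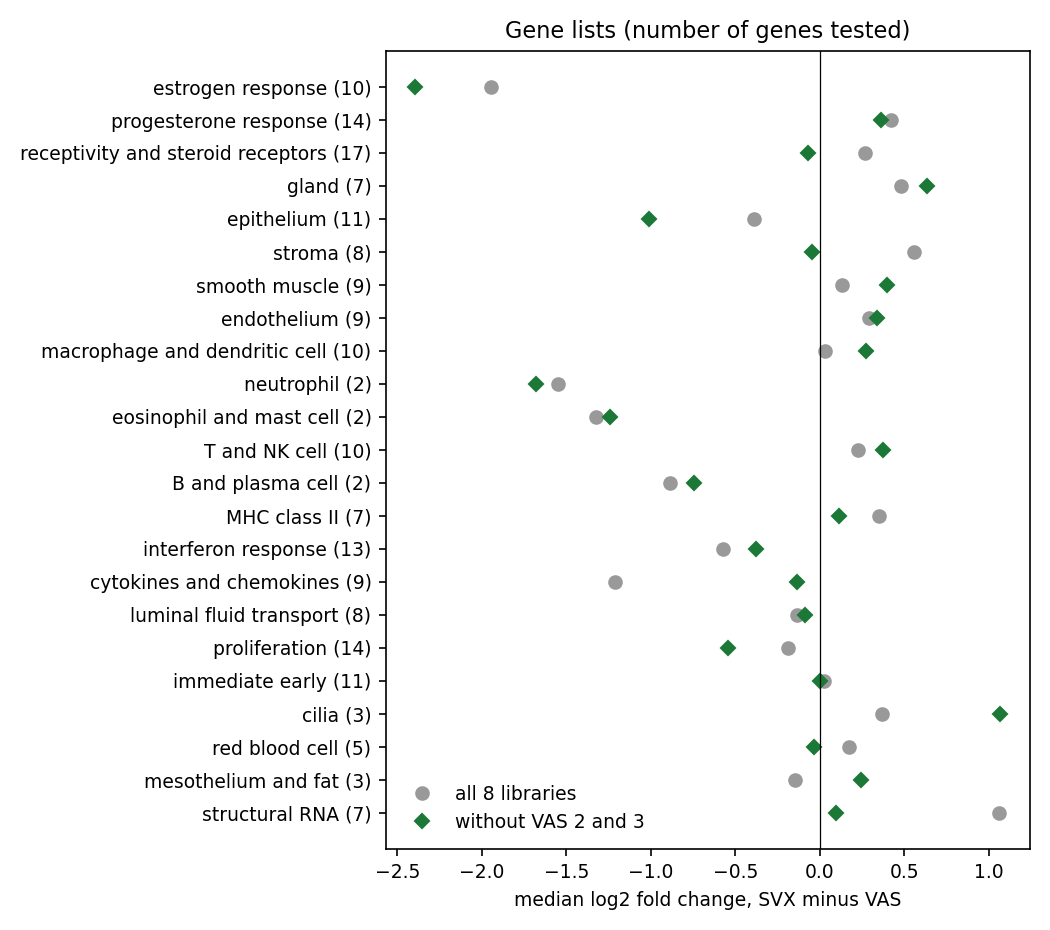
Median log2 fold change (SVX minus VAS, horizontal axis) of the tested genes of each list, with the number of genes in brackets, for all 8 libraries (gray circles) and without VAS 2 and VAS 3 (green diamonds). No gene of any list passed the test; the estrogen-response list lies farthest to the left in both, and the structural RNA list is at 1.06 only with VAS 2 and VAS 3 in.

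Neutrophil and eosinophil genes were low in SVX, at no more than 4.80 CPM, and also in INT, at no more than 3.83 CPM. Of 8 neutrophil markers, 2 passed the filter and were tested. Ly6g, a neutrophil surface protein, was at 0.232, 0.234, 0.145 and 0.214 CPM in SVX and 3.19, 1.21, 1.21 and 0.281 CPM in VAS, and Retnlg, a secreted neutrophil protein, had a logFC of -0.25 ± 0.41. All VAS libraries lay above all SVX libraries for Ly6g, but the SVX values and VAS 4 lay near what a count of 0 allows. At estrus Ly6g was at 6.99 to 11.2 CPM, and in INT at 0.170 to 3.07 CPM. Its logFC was -2.80 ± 0.91 with all libraries (edgeR FDR 0.304) and -3.11 ± 1.11 without VAS 2 and VAS 3 (edgeR FDR 0.716). Of the 6 markers that did not pass the filter, 3 had every VAS library above every SVX library, and they are named with their values known. The share was 2.35% among the genes tested, but those had passed the filter, so it is no direct measure for these 3. Cxcr2, a chemokine receptor of neutrophils, was at 0.774, 0.0781, 0.509 and 0.142 CPM in SVX and 2.46, 8.11, 11.8 and 0.982 CPM in VAS. At estrus it was at 0 to 0.0753 CPM, so Ly6g, high at estrus and highest in VAS 1, did not run with it. S100a8 and S100a9, which form calprotectin, were at 0.234 to 0.851 and 0.232 to 0.581 CPM in SVX and 1.62 to 7.99 and 1.26 to 10.1 CPM in VAS. In all 3 genes VAS 2 and VAS 3 were the highest, and in Cxcr2 and S100a9 VAS 4 was the lowest VAS library. Camp, a granule peptide, ran the other way (0.391 to 0.641 CPM in SVX, 0 to 0.421 CPM in VAS), and Mpo and Ngp were at or below 0.421 CPM in all 8. The summed level of all 8 neutrophil markers was 3.44 to 8.05 CPM in SVX and 7.51 to 35.9 CPM in VAS.

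Of 8 eosinophil and mast cell markers, 2 were tested, and both had a negative logFC. Siglecf, a surface lectin of eosinophils that did not pass the filter, was at 0.696, 0.234, 1.24 and 0.641 CPM in SVX and 1.90, 4.17, 3.64 and 1.68 CPM in VAS, with no overlap. In INT it was at 0.689 to 1.53 CPM. The other 5 that did not pass the filter overlapped, at 0 to 1.02 CPM. Among them Epx, eosinophil peroxidase, had the higher mean in SVX (0.129 against 0.0397 CPM), and Cma1, a mast cell protease, was at 0.145 to 0.391 CPM in SVX and 0.112, 0.649, 0.467 and 0.140 CPM in VAS. Il5ra, the interleukin 5 receptor of eosinophils, was at 0.464, 0.156, 0.436 and 0.356 CPM in SVX and 1.68, 1.99, 1.12 and 0.772 CPM in VAS. The sets did not overlap, at levels of few counts. Its logFC was -1.96 ± 0.67 with all libraries (edgeR FDR 0.304) and -1.82 ± 0.85 without VAS 2 and VAS 3 (edgeR FDR 0.716), and that of Ccr3, the eotaxin receptor, -0.66 ± 0.44. At estrus Il5ra was at 18.2 to 20.7 CPM, and in INT at 0.340 to 3.83 CPM.

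All 13 interferon-response genes had a logFC below 0 in both fits, with medians of -0.57 and -0.38. The list's median log2 CPM was 4.17, 4.56, 4.49 and 4.43 in SVX and 4.74, 5.24, 5.06 and 4.72 in VAS. INT libraries ranged from 4.01 to 5.58, which takes in all 8, and estrus libraries from 5.54 to 5.75. Mx1, an antiviral GTPase, had the lowest value without VAS 2 and VAS 3 (-1.94 ± 0.84, edgeR FDR 0.716, and -2.13 ± 0.70 with all libraries, edgeR FDR 0.304). It was at 6.11, 6.25, 6.10 and 5.34 CPM in SVX and 36.2, 33.4, 26.3 and 7.93 CPM in VAS. The sets did not overlap, and VAS 4 was close to SVX. In INT Mx1 ranged from 4.36 to 52.4 CPM, a span wider than that of SVX and VAS together. At estrus Mx1 was at 90.3 to 124 CPM. Gbp2, a GTPase, had the highest value (-0.01 ± 0.40). The sign of this list did not rest on VAS 1, since without VAS 1, VAS 2 and VAS 3 its median was -0.42 with 13 of 13 below 0, and without VAS 2, VAS 3 and VAS 4 it was -0.30 with 11 of 13. With VAS 4 alone left out it was -0.70 with 13 of 13. No member passed the test.

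Of 19 cytokines and chemokines, 9 were tested, with a median logFC of -1.21 with all libraries and -0.13 without VAS 2 and VAS 3. The median was -0.02 without VAS 1 too, and 0.14 without VAS 2, VAS 3 and VAS 4. With all libraries 5 had an unadjusted p under 0.05, all lower in SVX, beside 8.75% of all genes, and without VAS 2 and VAS 3 there were 0, beside 3.18%. Il1a, an epithelial alarm cytokine, was at 1.55, 0.391, 0.654 and 0.712 CPM in SVX and 2.80, 41.6, 1.96 and 0.982 CPM in VAS. VAS 2 alone was high. Its logFC was -3.84 ± 1.65 with all libraries and -1.25 ± 1.90 without VAS 2 and VAS 3. Cxcl5, Il1b and Cxcl10 were high in both VAS 2 and VAS 3, at 30.9 and 13.4, 7.93 and 6.73, and 9.64 and 7.94 CPM. In SVX they were at most at 1.45, 2.11 and 2.63 CPM. For Csf1 and Csf3, VAS 2 and VAS 3 also lay above every SVX library, and for Ccl5, Il15 and Il33 they did not both do so. Ccl5, a T cell chemokine, had the largest logFC (0.30 ± 0.45). In the T and NK cell list (10 of 12 tested) the median logFC was 0.23 and 0.37 (0.03 without VAS 1 too, and 0.85 without VAS 2, VAS 3 and VAS 4), from Cd3e, a T cell receptor chain (-0.79 ± 0.39), to Prf1, perforin (0.74 ± 0.39). Macrophage and dendritic cell markers (10 genes) had medians of 0.03 and 0.27 (0.08 without VAS 1 too, and 0.46 without VAS 2, VAS 3 and VAS 4), from Cd68 (-0.39 ± 0.47) to Adgre1 (0.45 ± 0.30).

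Genes of cells that could come from the male or the embryo were at low levels. Over 4 Y-linked genes the summed level was at most 0.145 CPM, over 7 sperm genes at most 1.07 CPM, over 7 seminal vesicle genes at most 0.291 CPM and over 8 blastocyst genes at most 0.641 CPM, in any of the 8 libraries. At estrus, in virgin females, the blastocyst sum was higher, at 3.16 to 4.02 CPM. The sperm sum was 0.236 to 0.464 CPM there, the seminal vesicle sum 0.0753 to 0.178 CPM and the Y-linked sum 0. Counts on these lists thus do not mark cells of the male or the embryo alone. None of these genes passed the filter. Ddx3y, Uty and Eif2s3y, the sperm genes Smcp and Akap4, and Svs2, Svs3a, Svs4, Svs5 and Svs6 were at 0 counts in all 8, and so was Zfp42.

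Among 9839 protein-coding genes with no opposite exon overlap, the 10 with the smallest p in each direction without VAS 2 and VAS 3 are named, although none was called. All have an FDR of 0.716 by edgeR and Benjamini-Hochberg adjustment, so the order is a description. Higher in SVX by that ranking were Sat2, Ahr, Gm45844, Sag, Gpm6a, Pcnx4, Pcyt1b, Camk1g, Upk1b and Pfkfb4, with a logFC of 0.25 to 0.85. Ahr, the aryl hydrocarbon receptor, was at 70.3, 79.9, 84.1 and 85.9 CPM in SVX and 54.2, 72.8, 83.4 and 69.0 CPM in VAS. Its logFC was 0.36 ± 0.10 without VAS 2 and VAS 3 and 0.20 ± 0.10 with them. Gpm6a, a membrane glycoprotein, was at 5.57, 6.64, 6.98 and 6.76 CPM in SVX and 2.52, 10.6, 9.95 and 4.63 CPM in VAS. VAS 2 and VAS 3 lay above all SVX libraries and VAS 1 and VAS 4 below, so the logFC was 0.85 ± 0.27 without the pair and -0.10 ± 0.34 with it. None of these 10 genes separated the sets with all 8 libraries.

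Lower in SVX were Rufy1, Pitpnm3, Klrg2, Omd, Col17a1, Cadps, Sphkap, Dnajb12, Dyrk3 and Kdf1, with a logFC of -1.58 to -0.28. In 5 of them, Rufy1, Pitpnm3, Sphkap, Dnajb12 and Kdf1, every SVX library lay below every VAS library, VAS 2 and VAS 3 included. The ranking used SVX against VAS 1 and VAS 4, so the place of these libraries was in part set by the choice, and no test is given. Over all genes tested, with no such choice, 724 (4.20%) did not overlap, 404 of them lower in SVX (2.35%) and 320 higher (1.86%). Rufy1, an endosomal trafficking protein, lies on chromosome 11 (50389286 to 50431125, minus strand). It was at 33.0, 32.3, 32.3 and 32.0 CPM in SVX and 39.4, 37.5, 34.1 and 37.9 CPM in VAS, a logFC of -0.28 ± 0.06, and -0.20 ± 0.05 with all libraries. The difference is small, and the SVX libraries lie close together. Sphkap, an anchoring protein for protein kinase A, was at 3.17, 2.89, 3.05 and 3.06 CPM in SVX and 7.11, 5.01, 10.5 and 4.84 CPM in VAS, a logFC of -1.0025 ± 0.30, and -1.17 ± 0.29 with all libraries. Kdf1, a regulator of epidermal differentiation, was at 9.36, 8.52, 9.23 and 8.68 CPM in SVX and 17.2, 12.1, 10.8 and 10.7 CPM in VAS, a logFC of -0.68 ± 0.21, and -0.51 ± 0.17 with all libraries. In these 3 genes VAS 4 lay outside the SVX values. Cadps, a protein of secretory vesicle release, had the lowest logFC (-1.58 ± 0.45, and -1.65 ± 0.42 with all libraries), at 2.32, 1.48, 1.24 and 0.712 CPM in SVX and 6.10, 3.48, 6.17 and 2.24 CPM in VAS. SVX 1 lay just above VAS 4. For Klrg2, Omd and Col17a1, VAS 2 and VAS 3 lay below all SVX libraries and VAS 1 and VAS 4 above, so the difference is there only when the pair is left out.

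**Figure D5:**
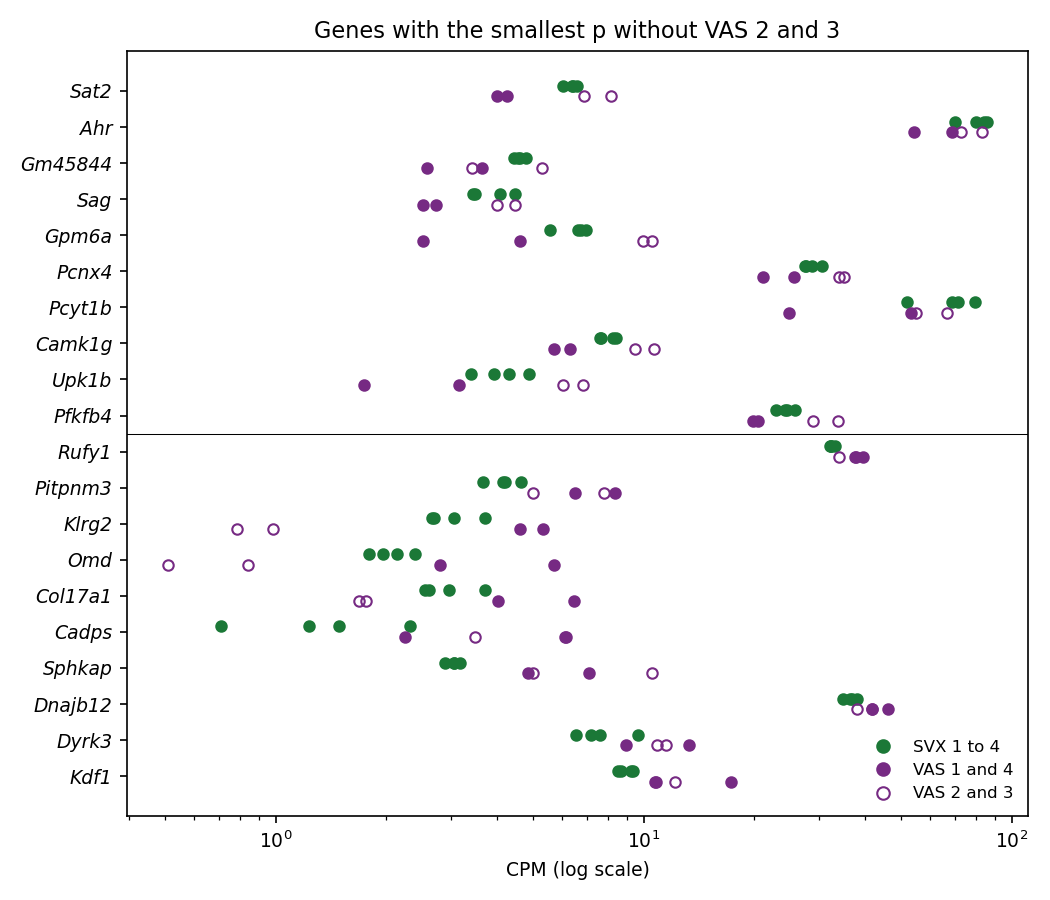
CPM (horizontal log axis) of the 10 genes with the smallest p in each direction without VAS 2 and VAS 3, higher in SVX above the line and lower below it. Green points are SVX 1 to 4, filled purple points VAS 1 and VAS 4, and open purple points VAS 2 and VAS 3, which in genes such as Gpm6a, Klrg2 and Omd lie on the other side of SVX from VAS 1 and VAS 4.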

How the data were processed

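The authors deposited raw counts per gene (49089 genes, 19 libraries, none of them normalised). Their text calls the estrus and INT samples pooled, and their methods, written for these, describe a stranded total RNA kit, paired-end sequencing, adapter removal, alignment with STAR to GRCm38 and counting with featureCounts; the strand setting is not given in the sources used here. Symbols and gene types came from the GENCODE annotation of GRCm38 for 48435 genes. The 17222 genes that reached 3 CPM in 3 or more libraries were tested with the quasi-likelihood functions of edgeR 4.0.16 (R 4.3.3), with TMM scaling, the 5 groups in 1 fit and no block, and again without VAS 2 and VAS 3. CPM use the TMM factors of 19 libraries, and log2 CPM a prior count of 2. DESeq2 1.42.0, limma 3.58.1 (limma-voom, with and without sample quality weights), other scalings, filters and omissions of libraries were alternatives. The fits were tested on simulated data, but the outcome is not given here and no result rests on it. Single values were compared with exact two-sided permutation tests. Figures were drawn with Python 3.11.15.

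The comparison and the 27 gene lists were chosen with earlier results of these data known. Genes were named by rule: the 10 smallest p in each direction without VAS 2 and VAS 3, since none was called, Ltf, Lif, and the largest and smallest logFC of each list (1 of these genes is not reported here). The rule did not say which fit gives the last; that without VAS 2 and VAS 3 was used. C3, Lcn2, Muc1, Il6st, Prss29, Foxa2, Malat1 and the gene called by DESeq2 were named after their values were seen. So were the neutrophil, eosinophil and cilia genes below the filter, and the cytokines and chemokines other than Il1a and Ccl5.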

Additional observations from a re-analysis of the deposited data

Results flagged for a closer look

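In 94 groups of 4 libraries checked for a library far from the others (named genes and list medians in SVX and in VAS), 3 had one, and chance alone gives about 4.7. The median log2 CPM of the estrogen-response list was 4.83 in SVX 1, against 1.22 to 1.29 in the other SVX libraries. The median of the proliferation list was 6.62 in SVX 1, against 5.81 to 5.91. The median of the 2 tested eosinophil and mast cell genes was -0.70 in SVX 2, against 0.08 to 0.16 in the others, at levels of few counts.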

How the results depend on the processing

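The counts of 0 with all libraries held under the omission of any single library other than VAS 4, both smaller sets of groups, 2 other scalings, 3 other filters, other fold cutoffs and the replicate number as a block. They moved to 1 higher with DESeq2, to 1634 higher and 22 lower with limma-voom, and to 3297 higher and 1353 lower with limma-voom and quality weights. Leaving out 1 library each gave 0 to 481 higher and 0 to 204 lower, the highest without VAS 4. Without VAS 2 and VAS 3 every alternative gave 0, including the 2 added after the data were seen (quality weights, and leaving out SVX 1 and VAS 1 as well), and the genes at an unadjusted p under 0.05 ran from 104 without VAS 1 to 5368 without VAS 4 (smallest FDR 0.0658 by edgeR). With 1 VAS library left, it is assumed to vary like the other groups. The labels give no shared animal or day for equal replicate numbers, and the deviations of equal numbers correlated at 0.30, 0.0035, -0.019 and 0.12, so the libraries share only a number; 2 of 4 SVX libraries correlated best with their own number, and the block changed the genes at an unadjusted p under 0.05 from 2651 to 3014, and from 780 to 477 without VAS 2 and VAS 3. The median log2 ratio to INT of antisense genes opposite another gene, as the mean of VAS 2 and VAS 3 minus that of VAS 1 and VAS 4, was -3.08 by exon overlap and -2.98 with introns counted. The cause of these moves was not tested.

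Of 1134 single-gene alternatives, 1006 kept sign and side of the threshold, 118 turned sign and 10 passed the cutoffs, and no gene that turned sign had passed them in the fit it is compared with. The 10 were Pitpnm3, Sphkap and Dyrk3 with quality weights (-0.73, -1.38, -0.62) and without VAS 4 (-0.76, -1.31, -0.62), Cadps in both (-1.98, -1.87) and with limma-voom (-1.70), and Klrg2 with quality weights (1.49), all with VAS 2 and VAS 3 in. The signs below are of logFC. In the fit on all libraries, leaving out VAS 2 and VAS 3 gave Gpm6a 0.85, Pcnx4 0.27, Camk1g 0.39, Upk1b 0.75, Pfkfb4 0.25, Klrg2 -0.74 and Lif 0.34, and SVX 1 as well Gpm6a 0.92, Pcnx4 0.29, Camk1g 0.41, Upk1b 0.82, Pfkfb4 0.22, Klrg2 -0.85 and Lif 0.55. With limma-voom Gpm6a was 0.054, Camk1g 0.0026, Omd 0.53 and Col17a1 0.14, and with quality weights Sat2 -0.22, Sag -0.11, Omd 1.33 and Col17a1 0.72. Pcnx4 and Camk1g were 0.00065 and 0.0025 with DESeq2, 0.0042 and 0.012 with its size factors in edgeR and 0.011 and 0.020 with no filter. Camk1g was 0.0057 with filterByExpr, and with the replicate block Camk1g was 0.023 and Omd 0.0097. Leaving out 1 library each gave Sat2 -0.018 to 0.34, Gpm6a -0.37 to 0.19, Pcnx4 -0.14 to 0.096, Camk1g -0.14 to 0.16, Upk1b -0.38 to 0.18, Pfkfb4 -0.19 to 0.088, Klrg2 -0.25 to 0.54, Omd -0.58 to 0.62, Col17a1 -0.45 to 0.25 and Lif -0.61 to 0.34. In the fit without VAS 2 and VAS 3, putting them back gave Hsd11b2 0.43, Col1a1 0.20, Ciita -0.12, Scnn1a -0.11, Mcm7 0.029, Hba-a1 0.12, Upk3b -0.15 and Lrrn4 -0.53. Leaving out SVX 1 and VAS 1 gave Cfb 0.075, Calca -0.030, Wnt4 0.066, Cldn3 -0.089, Vim -0.024, Col1a1 0.0013, Myh11 -0.30, Erg -0.00027, Vwf -0.30, Cd68 0.12, Retnlg 0.15, Cd74 -0.028, Scnn1a -0.16, Fos 0.64, Alas2 -0.050, C3 0.37, Lcn2 0.11 and Muc1 0.22. Cd74 was -0.0069 with no filter, and Gbp2 0.13 with limma-voom, 0.22 with quality weights and 0.020 with the replicate block. Leaving out 1 library each, mostly VAS 1 where the sign turned, gave Cfb -1.89 to 0.12, Clca1 -7.04 to 1.30, Calca -0.079 to 3.13, Wnt4 -2.18 to 0.40, Sox17 -0.029 to 0.40, Cldn3 -0.15 to 0.49, Vim -0.052 to 0.79, Col1a1 -1.06 to 0.15, Actg2 -0.16 to 2.14, Myh11 -0.51 to 1.57, Erg -0.025 to 0.99, Vwf -0.40 to 0.73, Cd68 -0.74 to 0.077, Retnlg -0.69 to 0.40, Jchain -0.24 to 0.19, Cd74 -0.13 to 0.16, Gbp2 -0.51 to 0.75, Scnn1a -0.079 to 1.01, Cftr -4.48 to 0.98, Mcm7 -0.60 to 0.075, Mcm5 -1.31 to 0.062, Fos -0.82 to 0.58, Foxj1 -2.23 to 0.20, Alas2 -0.096 to 0.35, Hba-a1 -0.71 to 0.14, Lrrn4 -0.046 to 0.50, Terc -0.37 to 0.15, C3 -2.65 to 0.43, Lcn2 -5.54 to 1.72 and Muc1 -2.28 to 0.47.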

Other observations

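The cilia list was the one list with a positive median logFC of over 1 without VAS 2 and VAS 3 (1.07 over the 3 tested of 9 listed, and 0.37 with all libraries). The 1.07 was the value of Ovgp1. Without VAS 1, VAS 2 and VAS 3 the median was 0.61 with 0 of 3 below 0, and without VAS 2, VAS 3 and VAS 4 it was 1.75. Dnah5, a motor of the ciliary axoneme, was at 9.60, 26.3, 29.1 and 20.4 CPM in SVX and 3.14, 20.03, 29.6 and 13.3 CPM in VAS. VAS 1 and SVX 1 were the lowest. Its logFC was 1.37 ± 0.61 (edgeR FDR 0.716). Ovgp1, oviductal glycoprotein, had a logFC of 1.07 ± 0.44 (edgeR FDR 0.716), whereas Foxj1, the master regulator of motile cilia, had -1.34 ± 0.99 at 0.509 to 3.10 CPM in SVX and 1.07 to 5.15 CPM in VAS. The 3 tested genes of the list thus did not share a sign in the fit without VAS 2 and VAS 3, and none passed the test. Rsph1, which did not pass the filter, ran the other way from the list's median. It was at 0.619 to 1.07 CPM in SVX and 1.18 to 1.96 CPM in VAS, with no overlap. Dnah9, Rsph4a, Spag6l and Tekt1 did not pass the filter either, and in these the sets overlapped.

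Without VAS 2 and VAS 3, MHC class II genes (7) had a median logFC of 0.11, from Cd74 (0.01 ± 0.29) to Ciita, their transactivator (0.21 ± 0.26), and 0.35 with all libraries. With VAS 1 left out too the median was -0.10 and 5 of the 7 were below 0, and with VAS 4 left out in its place it was 0.32 with 0 of 7. The 11 tested immediate early genes had a median of 0.00, from Fos (-0.29 ± 0.41) to Egr1 (0.38 ± 0.47), and 0.02 with all. Red blood cell genes (5) had a median of -0.03, from Hba-a1 (-0.35 ± 0.30) to Alas2 (0.11 ± 0.15), and 0.17 with all. It was -0.48 with 5 of 5 below 0 when VAS 1 was left out too, and 0.61 with 0 of 5 when VAS 4 was left out in its place. Of the B and plasma cell markers, Cd79b, a B cell receptor chain, had -1.44 ± 0.70 and Jchain -0.05 ± 0.67. Of the mesothelium and fat markers, Lrrn4 had 0.21 ± 0.23 and Upk3b 0.37 ± 0.19. None of these genes passed the test in either fit.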
